A study of Zea mays with 48 samples.

Results

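The count table of a maize leaf study held 174 features whose identifier starts with GRMZM5G, an older style of maize gene identifier that differs from the Zm00001d identifiers of most other features. Members of the set described here were the GRMZM5G features with at least 1 count in any library. They numbered 100 of the 46272 features in the table. The other 74 GRMZM5G features had 0 counts in 705.7 M gene counts, which allows at most 3 counts or 0.00425 CPM over all libraries, counting error only. CPM is the usual scaling of a count to a common library total, here the gene counts of each library, and M stands for mega. A count was seen for 57.5% of the GRMZM5G features and for 76.1% of all features. The set contributed 19638 counts in total, or 0.00278% of all gene counts.

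The study compared leaves of maize (Zea mays) with and without feeding by the two-spotted spider mite Tetranychus urticae. It used the inbred lines B73, B75 and B96 and the F1 hybrids of B73 with B75 and of B73 with B96. The infested groups were leaf sections on which 200 adult female mites had fed for 24 hours, and the control groups carried the same wax barrier without mites. All sections came from leaf 4 of 22-day-old greenhouse plants.

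The 48 libraries fell into 12 groups of 4. The B96 experiment held infested and control leaves of the F1 of B73 and B96, of B96, and of B73 (replicates 1 to 4). The B75 experiment held infested and control leaves of the F1 of B73 and B75, of B75, and of B73 (replicates 5 to 8). The labels name neither the mother of each F1 nor the number of plants behind a library, so the p-values measure only the spread between these libraries. Leaf sections mix cell types, and fewer cells of a type cannot be told apart from less RNA per cell.

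The GRMZM5G identifiers of this annotation are described as mostly organelle genes, but that description could not be checked here. The RefSeq gene table for the assembly Zm-B73-REFERENCE-NAM-5.0 matched 0 of the 174 identifiers. That table lists 1215 GRMZM5G identifiers of its own, of which 0 lie on the plastid or mitochondrial sequence. Such identifiers occur on 10 nuclear chromosomes. The features are therefore given by identifier, without a gene name, a genome position or a sequence. Feature lengths were not used here, so values rank the features by counts and not by level per length.

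As background, plastid genomes encode parts of the photosystems, the large subunit of Rubisco and the plastid gene expression machinery, and plant mitochondrial genomes encode parts of the respiratory chain. Organelle transcripts mostly lack stable poly(A) tails, and in organelles an added tail usually marks an RNA for decay. Libraries made by poly(A) selection, as here, therefore recover few of them, and what they recover need not follow the amount in the leaf. Copies of organelle DNA are also common in plant nuclear genomes, so reads from such genes can align in several places. In most flowering plants the organelles come from the mother.

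Within the set, counts were concentrated in few features. GRMZM5G881135 held 4318 counts, or 22.0% of the set, and GRMZM5G876913 held 2481 counts, or 12.6%. GRMZM5G836994 held 1608 counts (8.19%) and GRMZM5G862955 held 1240 (6.31%). These were followed by GRMZM5G804358, GRMZM5G884912, GRMZM5G867512 and GRMZM5G884538, with 1103, 1013, 973 and 926 counts, and the 8 together held 69.6%. At the other end, 39 features had 5 counts or fewer in all 48 libraries, and 15 of them had a single count. Only 12 features were counted in every library and 23 in every group.

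**Figure D1:**
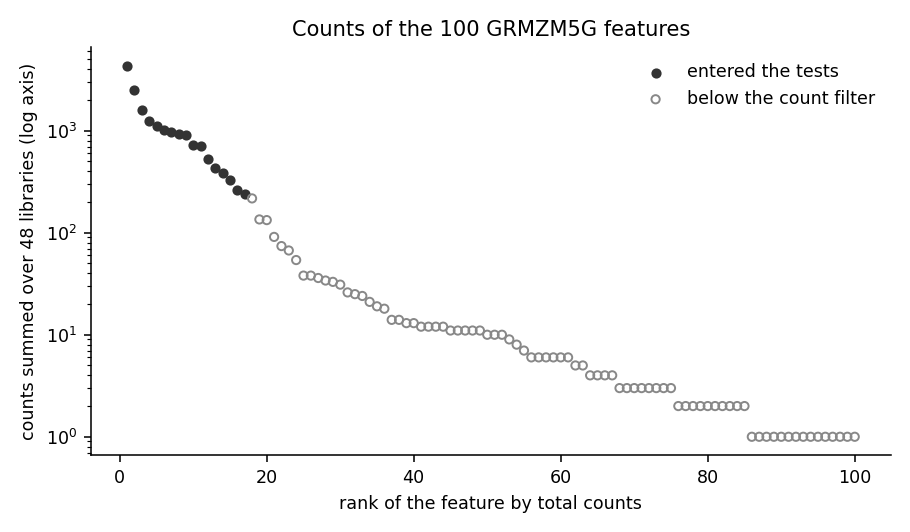
Total counts over the 48 libraries (y axis, log scale) of the 100 GRMZM5G features, ordered by rank (x axis). Filled points are the 17 features that entered the tests, from 4318 down to 239 counts, and open points are the 83 below the count filter, from 217 down to 1 count.

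Depth ran from 9.98 to 20.9 M gene counts per library (median 12.4 M for infested and 16.4 M for control leaves), so that 1 count stood for 0.0478 to 0.1 CPM. Each library gave 196 to 677 counts to the set and detected 25 to 46 of its features, with a median of 31.5 in infested and 34 in control libraries. Fold changes come from edgeR's quasi-likelihood test with TMM scaling, fitted to all genes of an experiment. A feature is called at a Benjamini-Hochberg adjusted p under 0.05 over all genes tested. The count filter passed 17 features of the set for the libraries with B96 and 15 for those with B75, where GRMZM5G856777 and GRMZM5G800096 did not pass. The least counted feature that passed was GRMZM5G800096 with 239 counts, and the most counted that did not was GRMZM5G898647 with 217. Because a feature with counts in 1 group can pass through that group alone, numbers below are of tested features and not of all 100.

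The summed level of the set lay between 13.2 and 47.6 CPM per library, that is 0.00132% to 0.00476% of gene counts, with a median of 26 CPM in infested and 27.2 CPM in control libraries. In the B96 experiment it averaged 24.6 ± 6.40 CPM in infested F1 leaves and 31.3 ± 5.36 CPM in control F1 leaves (SD, n = 4 each). It averaged 34.3 ± 7.57 CPM in infested B96 and 33.9 ± 6.30 CPM in control B96 leaves, and 30.1 ± 11.4 CPM in infested B73 and 27.3 ± 5.72 CPM in control B73 leaves. In all of these groups the libraries overlapped with those of every group they were compared with. In the B75 experiment it averaged 23.1 ± 5.13 CPM in infested F1 and 25.5 ± 2.05 CPM in control F1 leaves, and 23.7 ± 5.43 CPM in infested B75 and 28 ± 3.81 CPM in control B75 leaves. The B73 leaves of that experiment averaged 26.2 ± 10.5 CPM when infested and 26.9 ± 14.7 CPM as controls. The ratio of group means ran over the 16 comparisons of 2 groups from 0.784 for infested against control F1 of B73 and B96 to 1.24 for B96 against B73 in control leaves. The libraries of the 2 groups overlapped in all 16. No p is given for the sum.

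**Figure D2:**
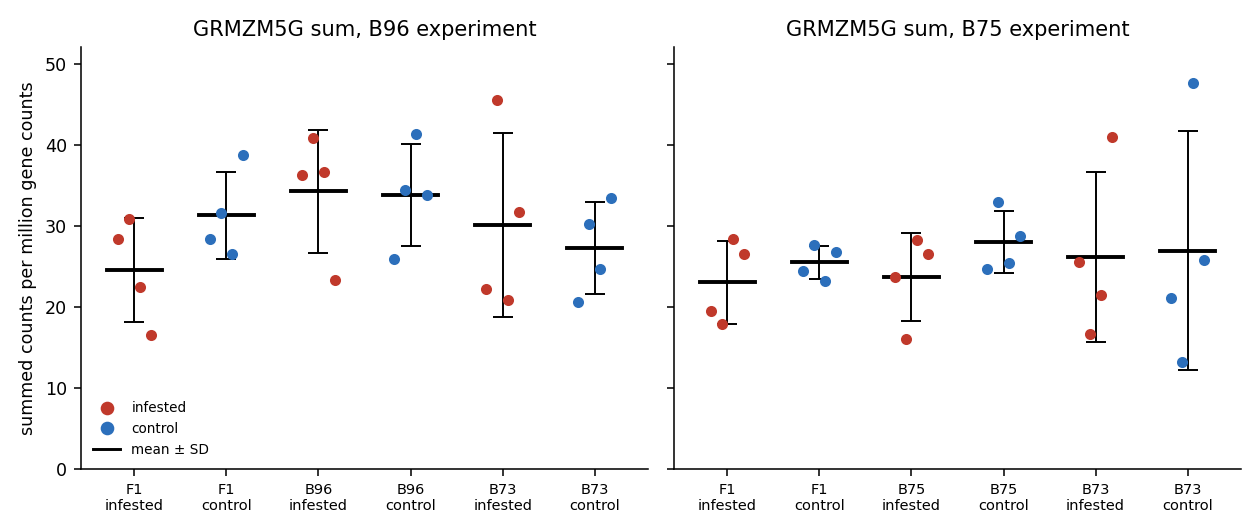
Summed CPM of the 100 GRMZM5G features (y axis) in each library (points), with the group mean and SD (bars, n = 4), for the B96 experiment (left) and the B75 experiment (right). The groups overlap throughout, and control B73 leaves of the B75 experiment span 13.2 to 47.6 CPM.

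The widest group was control B73 in the B75 experiment, with 21.2, 13.2, 47.6 and 25.8 CPM in replicates 5 to 8. Replicate 7 was the highest there. It also had the largest share of reads with more than one alignment of all libraries, 22.4%, where the 48 libraries ran from 8.21% to 22.4%, and its noncoding ENSRNA features summed to 761 CPM, against 198 to 344 CPM in the other three of its group. In 8 of the 12 groups the library with the highest GRMZM5G sum was also the one with the highest share of reads with more than one alignment. Of the 12 libraries with the highest sum, 10 were among the 12 with the highest such share, and 9 were among the 12 with the highest ENSRNA sum. Reads with more than one alignment were held in a summary line apart from the feature counts, and ENSRNA features are not part of the set. Why the GRMZM5G sum went with these measures was not tested.

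**Figure D3:**
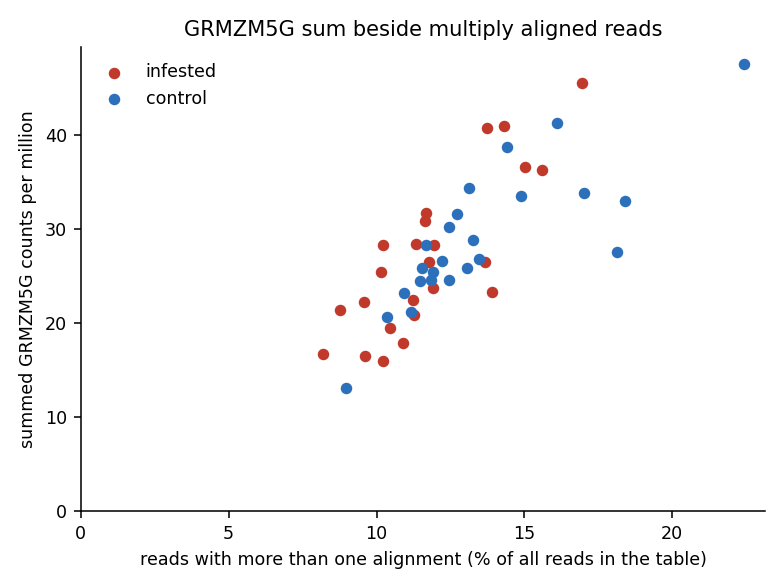
Summed CPM of the GRMZM5G features (y axis) against the share of reads with more than one alignment (x axis, percent of all reads in the table) for infested (red) and control (blue) libraries. The library highest on both axes, at 47.6 CPM and 22.4%, is control B73 replicate 7.

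Several of the most counted features were higher in B96 than in B73. In control leaves, 5 of 17 tested features were called, all higher in B96, where 64.4% of all genes tested were called in either direction. The median log2 fold change was 0.65 over the 17 features and 0.00 over all genes. In infested leaves, 6 of 17 were called, 4 higher and 2 lower in B96, beside 57.8% of all genes, and the medians were 0.31 and -0.01. The share of the set that was called was below that of all genes in each comparison. The 2 B96 groups also had the highest mean shares of reads with more than one alignment of the 12 groups. These were 14.8% in control B96 against 12.4% in control B73, and 14.6% in infested B96 against 12.4% in infested B73. The ENSRNA sum averaged 374 CPM in control B96 against 262 CPM in control B73, while in infested leaves B96 averaged 396 CPM and B73 447 CPM. Whether the differences between B96 and B73 are linked to either measure was not tested.

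GRMZM5G881135, the most counted feature, had 6.61, 9.01, 11.5 and 4.99 CPM in control B96 leaves, against 2.87, 5.15, 3.91 and 6.54 CPM in control B73 leaves. In infested leaves it had 8.59, 12.6, 9.40 and 6.80 CPM in B96 and 4.24, 5.25, 3.97 and 5.79 CPM in B73. The control groups overlapped and the infested groups did not. The log2 fold change of B96 over B73 was 0.99 ± 0.27 in control leaves (SE, edgeR adjusted p = 0.0027) and 1.10 ± 0.28 in infested leaves (adjusted p = 0.00163). In the F1 of B73 and B96 it averaged 6.96 ± 1.18 CPM infested and 7.41 ± 0.983 CPM control (SD, n = 4 each), between the 2 inbreds, and was not called against B73 in either state or against B96 in control leaves. Neither call in B96 was lost whichever library was left out.

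GRMZM5G876913 had 3.56, 5.57, 7.24 and 3.26 CPM in control B96 leaves, against 2.45, 2.69, 2.71 and 2.86 CPM in control B73 leaves. The 2 groups did not overlap, with a log2 fold change of 1.08 ± 0.29 (edgeR adjusted p = 0.00246). In infested leaves it had 4.33, 7.94, 5.01 and 3.48 CPM in B96 and 2.29, 3.10, 2.59 and 3.92 CPM in B73. These overlapped, with a log2 fold change of 0.95 ± 0.30 (adjusted p = 0.00909). Without infested B96 replicate 2, the highest library, this was 0.66 and no longer called (adjusted p = 0.0661).

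Ordered by mean CPM over the 12 groups, GRMZM5G881135 and GRMZM5G876913 had the same 5 highest groups in the same order, namely infested B96, control B96, control F1 of B73 and B96, infested F1 of B73 and B96, and infested B75. For GRMZM5G881135 infested B96 averaged 9.36 ± 2.44 CPM (SD, n = 4) and infested B75 5.83 ± 1.33 CPM, and for GRMZM5G876913 these were 5.19 ± 1.94 and 3.60 ± 0.898 CPM. Neighbours in these orders were not separated, since in all 11 neighbouring pairs of each feature the means differed by less than the larger SD. Both features come from the same libraries and both were called higher in B96, so part of this agreement follows from how the pair was picked. The high ends of other pairs were not compared. Neither feature was called in B75 against B73.

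**Figure D4:**
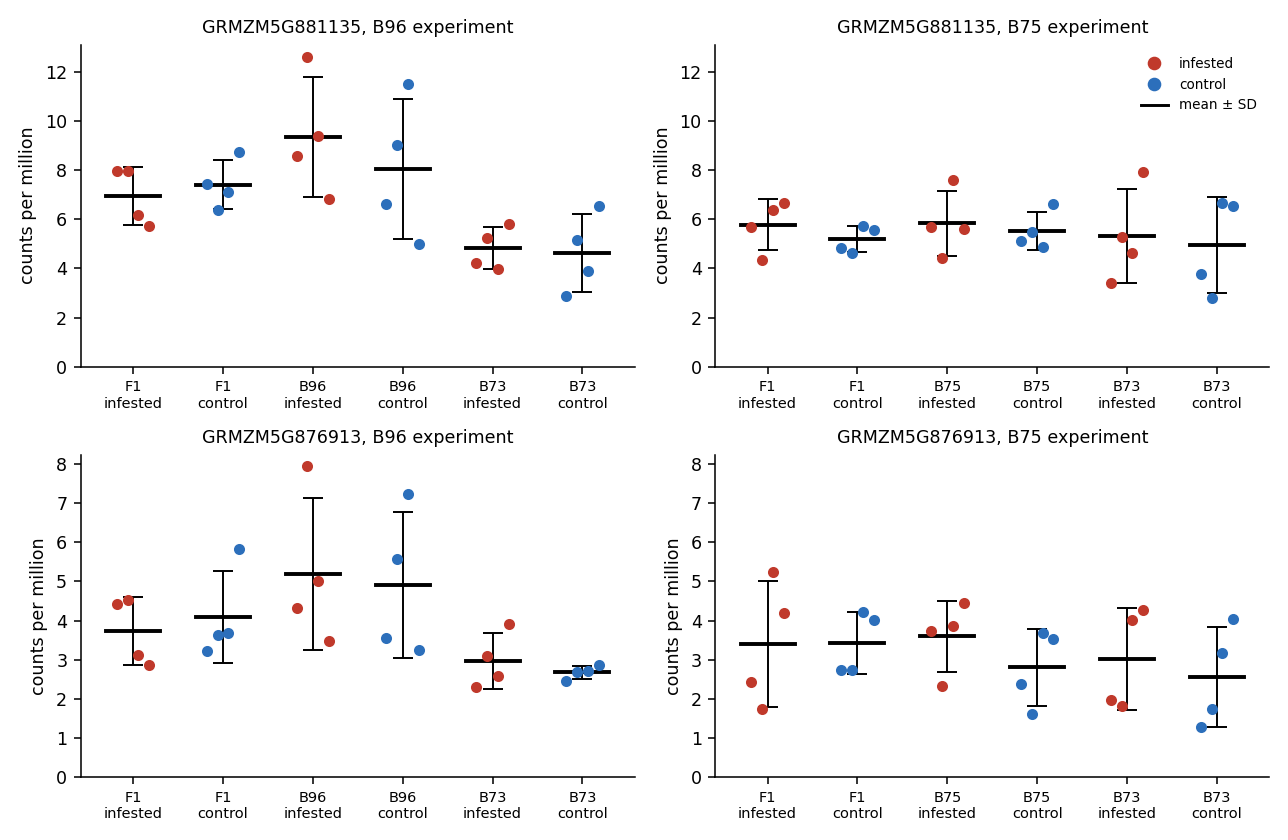
CPM of GRMZM5G881135 (top) and GRMZM5G876913 (bottom) in each library (points) with the group mean and SD (bars, n = 4), in the B96 experiment (left) and the B75 experiment (right). Infested B96 leaves lie at 6.80 to 12.6 CPM for GRMZM5G881135, above infested B73 leaves of the same experiment at 3.97 to 5.79 CPM, while B75 and B73 overlap.

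The other three called higher in B96 had lower counts. GRMZM5G889036 had 1.40, 2.49, 3.01 and 1.53 CPM in control B96 leaves, against 1.04, 1.46, 0.725 and 1.31 CPM in control B73 leaves, which overlapped, with a log2 fold change of 1.11 ± 0.34 (edgeR adjusted p = 0.00653). In infested leaves it had 1.56, 2.60, 1.97 and 1.13 CPM in B96 and 0.487, 1.38, 1.04 and 1.34 CPM in B73. These overlapped too, with a log2 fold change of 0.94 ± 0.37 (adjusted p = 0.0314). That call was lost without infested B73 replicate 1 or 3 or infested B96 replicate 2 or 3, at adjusted p from 0.0566 to 0.131.

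GRMZM5G862955 had 2.48, 1.66, 1.99 and 3.33 CPM in control B96 leaves, against 2.09, 1.52, 1.88 and 1.25 CPM in control B73 leaves, with a log2 fold change of 0.71 ± 0.29 (edgeR adjusted p = 0.0346). In infested leaves it had 3.49, 1.63, 1.79 and 1.94 CPM in B96 and 1.60, 1.46, 1.73 and 0.802 CPM in B73, with a log2 fold change of 0.80 ± 0.31 (adjusted p = 0.0298). The groups overlapped in both comparisons. The control call was lost without control B73 replicate 2 or 4 or control B96 replicate 1 or 4 (adjusted p 0.0733 to 0.167), and the infested one without infested B73 replicate 2 or 4 or infested B96 replicate 1 (0.0536 to 0.2). Without infested B96 replicate 1 the log2 fold change was 0.47.

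GRMZM5G845024 was called in control leaves alone, with 0.954, 0.889, 1.41 and 1.94 CPM in B96 against 0.574, 0.877, 0.628 and 1.01 CPM in B73. The groups overlapped, and the log2 fold change was 0.96 ± 0.40 (edgeR adjusted p = 0.042). The call was lost without control B73 replicate 1, 2 or 3 or control B96 replicate 3 or 4, at adjusted p from 0.0591 to 0.17. Without control B96 replicate 4 only 3 of the 17 features were called in the control comparison.

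These differences are relative to all genes. The set's sum averaged higher in B96 than in B73, with overlapping libraries, by a log2 ratio of 0.31 in control and 0.19 in infested leaves. These ratios use plain gene counts. With TMM scaling, as in the fold changes of single features, they were 0.51 and 0.33. On plain gene counts without GRMZM5G881135 the ratio was 0.19 in control and -0.02 in infested leaves, and without the 5 most counted features 0.17 and 0.06. With the summed count of the set used as the library size, 1 feature was called in control and 3 in infested leaves. Under that scaling GRMZM5G881135 had a log2 fold change of 0.51 in control leaves (edgeR adjusted p = 0.177) and 0.70 in infested leaves (adjusted p = 0.078). None of the features higher in B96 was called under it, while all kept their direction. These features are part of that sum, and GRMZM5G881135 alone averaged 23.6% of it in control and 27.4% in infested B96 leaves. A rise in them also raises the sum, which lowers their own fold changes. The loss of calls under this scaling is therefore partly built in. It moved the median of all genes by -0.56 in the control and -0.39 in the infested comparison. Under it GRMZM5G800096 was called lower in B96, with a log2 fold change of -2.06 in control leaves (adjusted p = 0.00469) and -1.71 in infested leaves (adjusted p = 0.0312). The main edgeR fit did not call it, at adjusted p = 0.0775 and 0.111. It passed the count filter only through its B73 libraries, as B96 libraries reached at most 0.296 CPM in control and 0.521 CPM in infested leaves. Its call under that scaling is therefore not used as support for a difference.

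In infested leaves a pair of features was called lower in B96 and in both F1s than in B73. Against infested B73, 2 of 17 tested features were called in the infested F1 of B73 and B96, both lower, beside 35% of all genes. In the infested F1 of B73 and B75 the same 2 features were called, of 15 tested, beside 25.8% of all genes. They were GRMZM5G836994 and GRMZM5G811749. Against infested B73, infested B75 had log2 fold changes of -0.92 ± 0.60 and -0.69 ± 0.49 for them, not called (edgeR adjusted p = 0.205 and 0.246). The control F1 of B73 and B75 against control B73 had -1.01 ± 0.58 and -0.96 ± 0.47, also not called (adjusted p = 0.19 and 0.113). The lower level is therefore not shown to be particular to the groups with a call.

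GRMZM5G836994 had 1.70, 0.974, 0.702 and 0.0843 CPM in infested leaves of the F1 of B73 and B96, and 1.14, 1.56, 1.16 and 0.324 CPM in infested B96 leaves. Infested B73 leaves of that experiment had 5.98, 9.30, 3.10 and 2.59 CPM, above every library of the other 2 groups. The log2 fold change over B73 was -2.66 ± 0.54 in the F1 (edgeR adjusted p = 0.00058) and -2.16 ± 0.52 in B96 (adjusted p = 0.00114). Neither call was lost whichever library was left out. The library with 9.30 CPM, infested B73 replicate 2, was also the highest of its group in other measures. It had a set sum of 45.5 CPM, 17% of reads with more than one alignment and an ENSRNA sum of 682 CPM. The others of its group had 20.9 to 31.7 CPM, 9.58% to 11.7% and 244 to 485 CPM. Without that library the log2 fold change was -2.27 in the F1 (adjusted p = 0.00359) and -1.77 in B96 (adjusted p = 0.00776). In the B75 experiment the infested F1 had 0.652, 0.712, 0.242 and 1.11 CPM, and infested B73 had 4.55, 0.487, 0.702 and 5.63 CPM. The B73 libraries there fell into 2 high and 2 low values, the low ones within the range of the F1, and the log2 fold change was -2.06 ± 0.67 (adjusted p = 0.026). That call was lost without infested B73 replicate 5 or 8 or infested F1 replicate 1, 2 or 3, at adjusted p from 0.0508 to 0.139.

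GRMZM5G811749 had 0.885, 0.443, 0.234 and 0.169 CPM in infested leaves of the F1 of B73 and B96, and 0.721, 0.456, 0.358 and 0.729 CPM in infested B96 leaves. Infested B73 leaves had 1.67, 2.41, 0.862 and 1.96 CPM, apart from infested B96 and overlapping with 1 F1 library. The log2 fold change over B73 was -2.03 ± 0.61 in the F1 (edgeR adjusted p = 0.0126) and -1.44 ± 0.58 in B96 (adjusted p = 0.0371). The F1 call was not lost whichever library was left out, and the B96 call was lost without infested B73 replicate 1, 2 or 4 or infested B96 replicate 2 or 3 (adjusted p 0.0582 to 0.0944). In the B75 experiment it had 0.489, 0.237, 0.565 and 0.257 CPM in the infested F1 and 2.23, 0.557, 0.702 and 1.59 CPM in infested B73, which overlapped, with a log2 fold change of -1.67 ± 0.55 (adjusted p = 0.0277). This call was lost without infested B73 replicate 5 or 8 or infested F1 replicate 2 or 4 (adjusted p 0.0674 to 0.127).

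The count of 2 called features in the infested F1 of B73 and B75 was 0 without infested B73 replicate 5 or 8 or infested F1 replicate 2, and 1 without infested F1 replicate 1, 3 or 4. In the infested F1 of B73 and B96 it was 4 without infested B73 replicate 1 or control F1 replicate 4, and 4 by DESeq2. With the replicate number as a block it was 3, the added feature being GRMZM5G874448, with a log2 fold change of -1.52 (adjusted p = 0.0376).

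**Figure D5:**
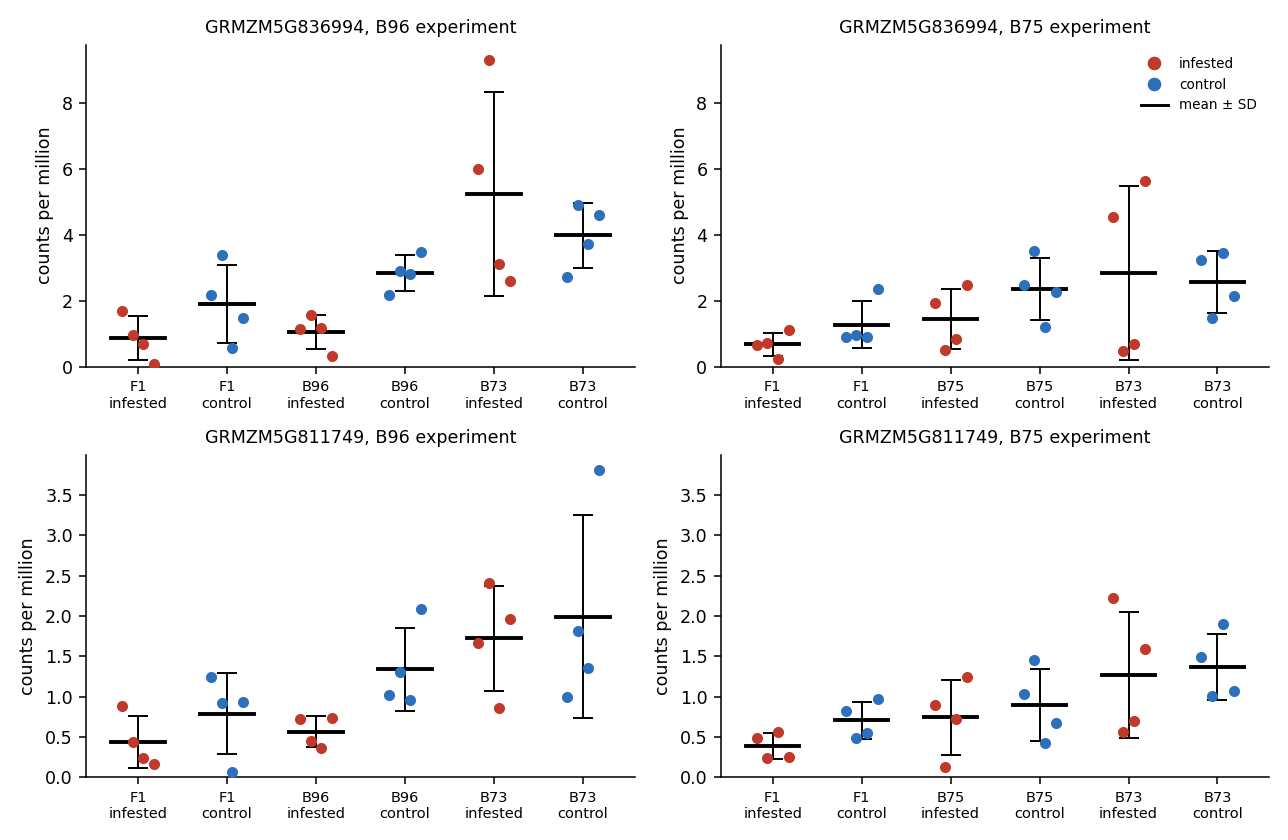
CPM of GRMZM5G836994 (top) and GRMZM5G811749 (bottom) in each library (points) with the group mean and SD (bars, n = 4), in the B96 experiment (left) and the B75 experiment (right). For GRMZM5G836994 the infested F1 and infested B96 libraries of the B96 experiment lie at or below 1.70 CPM and infested B73 at or above 2.59 CPM, and in the B75 experiment infested B73 splits into 0.487 and 0.702 CPM and 4.55 and 5.63 CPM.

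The 2 features had the same 7 lowest groups in the same order over the 12 groups. Both were called lower in infested B96 and F1 leaves, so part of this agreement follows from how the pair was picked. The low ends of other pairs were not compared. From the lowest, these were the infested F1 of B73 and B75, the infested F1 of B73 and B96, infested B96, the control F1 of B73 and B75, infested B75, the control F1 of B73 and B96, and control B75. The lowest averaged 0.679 ± 0.356 CPM for GRMZM5G836994 and 0.387 ± 0.165 CPM for GRMZM5G811749 (SD, n = 4 each). The highest for GRMZM5G836994 was infested B73 of the B96 experiment, at 5.24 ± 3.09 CPM, and for GRMZM5G811749 control B73 of that experiment, at 1.99 ± 1.26 CPM. In all 11 neighbouring pairs of each order the means differed by less than the larger SD. GRMZM5G836994 had the widest spread over libraries of the features with at least 100 counts, with a variance 8.96 times that of counting alone, where the narrowest, GRMZM5G834666, had 1.27 times.

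In control leaves, 0 of 17 tested features were called in the F1 of B73 and B96 against B73 by edgeR, beside 27% of all genes, and 4 had an unadjusted p under 0.05. There GRMZM5G836994 averaged 1.90 ± 1.19 CPM in the F1 and 3.98 ± 0.983 CPM in B73, with a log2 fold change of -1.12 ± 0.48 (adjusted p = 0.0899). GRMZM5G811749 had a log2 fold change of -1.38 ± 0.52 (adjusted p = 0.0536) and was called by DESeq2, the 1 feature that tool called. With the replicate block in edgeR both were called, at adjusted p = 0.0379 and 0.0182. Same-numbered libraries did not deviate together throughout in that comparison, with correlations from -0.139 to 0.307. One feature was also called without control B73 replicate 1, 3 or 4, control F1 replicate 2 or 4, or infested F1 replicate 1.

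Against B96 in control leaves, 0 of 17 tested features were called in the F1 of B73 and B96 by edgeR, beside 55.3% of all genes. One had an unadjusted p under 0.05, and DESeq2 called 1, GRMZM5G889036, with a log2 fold change of -0.80 (adjusted p = 0.0402). One was also called by edgeR without control B96 replicate 1, 2 or 4 or control F1 replicate 4. The median log2 fold change was -0.42 over the 17 features and 0.06 over all genes.

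In the B75 experiment the comparisons of control leaves gave no call. In control leaves 0 of 15 tested features were called in B75 against B73 by edgeR or DESeq2, beside 54.6% of all genes, with 0 at an unadjusted p under 0.05, and 3 were called without control B73 replicate 7. In the control F1 against B73, 0 of 15 were called by either tool, beside 34.8% of all genes, with 2 at an unadjusted p under 0.05, and 1 was called without that same library. In the control F1 against B75, 0 of 15 were called by either tool, beside 36.1% of all genes, and 0 had an unadjusted p under 0.05.

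In infested leaves 1 of 15 tested features was called in B75 against B73, beside 53.5% of all genes. GRMZM5G862955 had 2.19, 1.62, 1.31 and 1.09 CPM in infested B75 and 0.624, 0.557, 1.10 and 0.634 CPM in infested B73. Only the lowest B75 and the highest B73 library overlapped, and the log2 fold change was 1.19 ± 0.38 (edgeR adjusted p = 0.0104). The call was not lost whichever library was left out.

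Few features of the set were called between infested and control leaves of one genotype. Most tested features had low counts, and a feature not called is not shown to be unchanged. In B96, 1 of 17 tested features was called, beside 47.8% of all genes. GRMZM5G836994 had 1.14, 1.56, 1.16 and 0.324 CPM in infested B96 and 2.16, 2.90, 2.82 and 3.47 CPM in control B96. The groups did not overlap, and the feature fell by 1.60 ± 0.53 on the log2 scale with infestation (edgeR adjusted p = 0.0162). Without infested B96 replicate 4, the lowest library, the log2 fold change was -1.32 and no feature was called (adjusted p = 0.0553). GRMZM5G811749 had a log2 fold change of -1.40 ± 0.58 in the same comparison (adjusted p = 0.0507) and was called by DESeq2, which called 2. With the replicate block edgeR also called 2, with GRMZM5G811749 at adjusted p = 0.0197. Leaving out control B73 replicate 1 or 4, infested B73 replicate 3, control F1 replicate 3 or infested F1 replicate 1 also gave 2.

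In B73 of the same experiment 0 of 17 were called by edgeR or DESeq2, beside 24.9% of all genes, and 1 had an unadjusted p under 0.05. GRMZM5G836994 had a log2 fold change of 0.28 ± 0.45 there. The response of B96 minus that of B73 called 0 of 17, beside 22% of all genes, with 1 at an unadjusted p under 0.05. That one was GRMZM5G836994, whose response differed by -1.88 ± 0.70 (edgeR adjusted p = 0.0576), and it was the 1 feature DESeq2 called (adjusted p = 0.044). With the replicate block edgeR called it too (adjusted p = 0.0395). One feature was also called by edgeR without infested B73 replicate 3 or 4, infested B96 replicate 2, control F1 replicate 3 or infested F1 replicate 1 or 4.

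In the F1 of B73 and B96, 0 of 17 tested features were called by edgeR, beside 40.7% of all genes, 2 had an unadjusted p under 0.05, and DESeq2 called 1, GRMZM5G874448. With the replicate block edgeR called that feature too (adjusted p = 0.0374). All 17 had a log2 fold change at or below 0, with a median of -0.59 beside -0.03 over all genes. The summed level was 28.4, 30.8, 22.5 and 16.5 CPM in these infested libraries, and replicate 4, the lowest, also had the lowest ENSRNA sum of all libraries, 132 CPM. As a group, the infested F1 libraries averaged 11% of reads with more than one alignment against 12.8% in control F1, and an ENSRNA sum of 246 CPM against 364 CPM in control F1. Whether that result is linked to either measure was not tested. One feature was called by edgeR without control B73 replicate 1 or 3, infested B73 replicate 1, control B96 replicate 2, infested B96 replicate 3 or 4, control F1 replicate 1, 2 or 3, or infested F1 replicate 1 or 3.

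In the B75 experiment GRMZM5G862955 fell with infestation in B73 and in the F1. In B73, 1 of 15 tested features was called, beside 38.5% of all genes. It had 0.624, 0.557, 1.10 and 0.634 CPM in infested B73 and 1.04, 0.9, 3.02 and 1.07 CPM in control B73, with a log2 fold change of -1.25 ± 0.37 (edgeR adjusted p = 0.011). Replicate 7 was the highest library in each group. Without control B73 replicate 7, the library with the highest set sum, the log2 fold change was -0.73 and no feature was called (adjusted p = 0.0858). With the set's sum as library size it was -0.89 and not called (edgeR adjusted p = 0.2). In B73 of the B96 experiment GRMZM5G862955 was not called, with a log2 fold change of -0.36 ± 0.31 (edgeR adjusted p = 0.418).

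In the F1 of B73 and B75, 1 of 15 was called, beside 46% of all genes. GRMZM5G862955 had 0.896, 1.11, 1.86 and 1.37 CPM in infested F1 and 2.25, 3.47, 1.94 and 1.89 CPM in control F1, which did not overlap. The log2 fold change was -1.03 ± 0.33 (edgeR adjusted p = 0.0139), and no feature was called without control F1 replicate 2 or infested F1 replicate 1 (adjusted p 0.0598 and 0.0517). With the set's sum as library size it was -0.72 and not called (edgeR adjusted p = 0.242). In B75, 0 of 15 were called by edgeR or DESeq2, beside 38.8% of all genes, with 1 at an unadjusted p under 0.05, and 1 was called without control B73 replicate 7 or infested B75 replicate 1. GRMZM5G862955 averaged 1.55 ± 0.474 CPM in infested and 2.27 ± 0.503 CPM in control B75 leaves, with a log2 fold change of -0.66 ± 0.32 (adjusted p = 0.11). The response of B75 minus that of B73 called 0 of 15 by either tool, beside 9.2% of all genes, with 1 at an unadjusted p under 0.05, and 1 was called without control B73 replicate 7.

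The other 4 of the 8 most counted features were called in none of the 18 comparisons. GRMZM5G804358 had group means from 1.17 ± 0.342 CPM in control B96 to 2.04 ± 1.39 CPM in control B73 of the B75 experiment (SD, n = 4 each). GRMZM5G884912 ran from 1.05 ± 0.462 CPM in infested B75 to 1.77 ± 1.24 CPM in that same control B73 group, and GRMZM5G884538 from 0.647 ± 0.260 to 1.79 ± 1.77 CPM between the same 2 groups. GRMZM5G867512 ran from 1.08 ± 0.644 CPM in infested to 1.81 ± 0.848 CPM in control leaves of the F1 of B73 and B96. The high means in control B73 leaves of the B75 experiment each include replicate 7, which had 3.87, 3.59 and 4.36 CPM of GRMZM5G804358, GRMZM5G884912 and GRMZM5G884538.

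The 83 features below the count filter held 1446 counts. By genotype, 77 of the 100 features had a count in B73, over 16 libraries, and over 8 libraries each 72 had one in B75, 70 in B96, 68 in the F1 of B73 and B75 and 70 in the F1 of B73 and B96. All 5 genotypes shared 47. The rule for a feature missing from an inbred asked for 5 CPM or more in B73 or in the other inbred of its experiment. Only GRMZM5G881135 and GRMZM5G876913 averaged that much in an inbred. Both were counted in all 48 libraries, so the rule could name none. Whether features at lower levels are missing from an inbred was not tested. A pair of low features, chosen after their values were seen, was unevenly spread over genotypes. GRMZM5G815453 had 28 counts in B75 and 19 in the F1 of B73 and B75, against 15 in the 16 B73 libraries, and 3 in B96 and 2 in the F1 of B73 and B96. GRMZM5G889905 had 5 counts in B75, 6 in B96, 13 in the F1 of B73 and B75 and 12 in the F1 of B73 and B96, against 38 in the 16 B73 libraries. Neither was tested.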

How the data were processed

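RNA from 48 maize leaf samples was made into stranded, poly(A)-selected libraries, per the labels' protocols. The authors deposited 1 table of whole-number read counts per feature, with STAR 2.5.3a, HTSeq 0.9.1 and the build B73 RefGen_v4 named in the submitters' processing notes, whose options were not given in the sources used here. The 5 summary lines of the table, 12.7% to 28% of its reads (median 17.0%), were left out of library sizes and tests. Each experiment (24 libraries) was fitted separately with edgeR 4.0.16 in R 4.3.3 (filterByExpr at a minimum count of 10, TMM, group means, quasi-likelihood test, Benjamini-Hochberg adjustment over all genes). DESeq2 1.42.0, median-of-ratios scaling, no count filter, library sizes without the set or from its sum, a replicate block and leaving out each library were alternatives. The code was tested on simulated data with changes in more highly counted genes outside the set. That test does not show how well changes in low-count features are found. None of the 72 pairs of libraries within groups agreed within sampling noise.

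The members and lists were chosen with earlier results of these data known. Text names the 8 most counted features, and called features that averaged 5 CPM or more in the higher group and had no overlap. Others were added after their values were seen. Lists by organelle gene symbol gave no value, since no identifier was annotated.

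The labels describe a randomized block design but do not say that replicate numbers mark blocks. In the B75 experiment the B73 libraries carry other replicate numbers than those of B75 and the F1. There the B73 libraries were matched to the others in order of number, which is an assumption that the labels do not state. Libraries matched in that order are counted here as same-numbered. Same-numbered libraries deviated together, with every correlation over 0.1, in 2 of 16 comparisons. These were infested F1 against infested B73 in each experiment (0.12 to 0.497 with B96, 0.102 to 0.266 with B75). With B75 the numbers were not the same, and the range rests on the assumed matching. The main tests used group means without pairing, there too. The replicate block was an alternative run on all groups of an experiment, also where the numbers did not pair samples by this measure. In the B75 experiment it used the same assumed matching of the B73 libraries. Floors cover counting error only, and do not cover reads held in the summary lines, such as those with more than one alignment.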

Additional observations from a re-analysis of the deposited data

Results flagged for a closer look

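In 6 of 144 groups of 4 libraries checked (the set's sum and 11 features), 1 library lay far from the others of its group, where chance gives about 1 in 20 groups. GRMZM5G862955 had 3 of them. It had 3.02 CPM in control B73 replicate 7 against 0.9 to 1.07 CPM in the others, 1.10 CPM in infested B73 replicate 7 against 0.557 to 0.634 CPM, and 3.49 CPM in infested B96 replicate 1 against 1.63 to 1.94 CPM. GRMZM5G836994 had 2.35 CPM in control replicate 4 of the F1 of B73 and B75, against 0.888 to 0.973 CPM in the others. GRMZM5G845024 had 0.985 CPM in infested B75 replicate 3 against 0.778 to 0.810 CPM. GRMZM5G884538 had 0.259 CPM in infested B75 replicate 2, the only low one of the 6, against 0.730 to 0.810 CPM. No set sum was among the 6, including those of control B73 replicate 7 and infested B73 replicate 2.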

How the results depend on the processing

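Of the 19 calls of a feature in a comparison, 0 changed direction under the alternatives run. All 19 were kept with DESeq2, median-of-ratios scaling, library sizes without the set and the replicate block. Without a count filter 17 were kept, those lost being GRMZM5G845024 (adjusted p = 0.0557) and GRMZM5G862955 (adjusted p = 0.0534) in control B96 against control B73. With the set's sum as library size, which contains the tested features themselves, 7 were kept. Whichever library was left out, 8 were kept.

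In the B96 experiment, B96 against B73 had 1 called feature in control and 3 in infested leaves with the set's sum as library size, and 3 to 6 and 4 to 6 leaving out a library. The control F1 against B73 had 1 with DESeq2, 1 with median-of-ratios scaling, 3 with the set's sum and 2 with the replicate block, and 0 to 1 leaving out a library. The infested F1 against B73 had 4 with DESeq2 and 2 to 4 leaving out a library. The control F1 against B96 had 1 with DESeq2, 1 with median-of-ratios scaling and 1 without a filter, and 0 to 1 leaving out a library. The mite response of B96 had 2 with DESeq2, 2 with median-of-ratios scaling and 2 with the replicate block, and 0 to 2 leaving out a library. That of the F1 had 1 with DESeq2, 1 with the replicate block and 0 to 1 leaving out a library, and so did the response of B96 minus that of B73. The response of B73 had 0 throughout.

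In the B75 experiment, B75 against B73 in infested leaves had 2 without a filter, and the infested F1 against B73 had 1 with the set's sum and 0 to 3 leaving out a library. The mite responses of B73 and of the F1 had 0 with the set's sum and 0 to 1 leaving out a library. That of B75 had 1 without a filter and 0 to 1 leaving out a library. Leaving out a library gave 0 to 3 for B75 and 0 to 1 for the F1 against B73 in control leaves, and 0 to 1 for the response of B75 minus that of B73. The replicate block changed no count there. The cause of these changes was not tested.

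Of 192 alternative ratios of the summed level, 0 moved by more than the spread between libraries and 20 changed sign. TMM scaling changed the mean log2 library size of 2 groups so as to add -0.28 to 0.22 to a log2 ratio. With it, the summed ratio went from -0.11 to -0.36 for control F1 against control B96. For control B96 against control B73 it went from 0.31 to 0.51. Depth gave the set 196 to 677 counts a library, and 83 features could not be tested, and features missing from a group were not detectable at this depth. Poly(A) selection, multiply aligned reads and missing annotation limit what the counts stand for.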
